A study of Mus musculus with 24 samples.

Results

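Mice with a floxed Egr1 gene but no Cre recombinase (Egr1f NesCre-) were compared with mice whose Egr1 gene was wild type and which also had no Cre (Egr1wt NesCre-). The comparison was chosen with earlier results of these data known, and its members were set by genotype alone. The members are the 12 mice without Cre among the 24 mice of the study. They comprised 6 floxed mice and 6 wild-type mice, with 3 females and 3 males of each. RNA of adult hippocampus was sequenced. The floxed allele comes from the conditional strain Egr1_tm1a_A04 on C57BL/6N, in which loxP sites, the short sequences that Cre recombines, flank part of Egr1. The sources used here do not say whether the targeting cassette of the tm1a allele had been removed in these mice. The other 12 mice of the study carry Nestin-Cre, a transgene that expresses Cre under the Nestin promoter in the neural lineage, on a wild-type or floxed Egr1 background. Their values are given only beside those of the mice without Cre. The mouse numbers in the labels form separate series for the wild-type and the floxed mice, so the allele and the series of mice cannot be told apart. The labels do not say which mice were littermates, and each p-value measures the spread between these individual mice.

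Egr1 encodes a zinc-finger transcription factor that neurons induce within minutes of synaptic activity, together with other immediate early genes such as Fos, Arc and Npas4. A floxed allele is designed to leave its gene working until Cre removes the flanked part, so floxed mice without Cre serve as controls for a conditional knockout. Several genes described here act at the blood-brain barrier, the sealed endothelium of brain vessels, where Slc2a1 (GLUT1) carries glucose and Mfsd2a carries lysophospholipids that hold omega-3 fatty acids. Plin4 encodes perilipin 4, a protein that coats lipid droplets.

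The deposited counts per mouse summed to between 18025168 and 34955004 in the 12 mice. The labels name the tissue hippocampus and the cell type endocrine. The hippocampal markers were all detected, with the dentate granule cell gene Prox1 at 110.2 to 172.9 CPM (counts normalised to the library size) and the CA1 gene Fibcd1 at 143.7 to 206.4 CPM, whereas the hormone genes Ins2, Gcg, Gh and Prl stayed at or below 0.712 CPM. Xist and Ddx3y matched the labelled sex in 12 of 12 mice. Floxed males 2 and 3 stood apart by markers of the choroid plexus, the tissue that secretes cerebrospinal fluid. The gene Ttr, the thyroid hormone carrier of that tissue, was at 744 and 956 CPM in them and at 6.37 to 20.9 CPM in the other 10 mice. Floxed male 2 was also the highest for the hypothalamic hormone genes Avp and Oxt, at 6.78 and 5.71 CPM.

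Egr1 itself (ENSMUSG00000038418, chromosome 18, 34859823 to 34864984 on GRCm38) was detected in all 12 mice, and the difference between the groups was within their spread. In floxed females it was at 146, 82.0 and 66.9 CPM and in floxed males at 84.7, 72.0 and 108 CPM. In wild-type females it was at 114, 117 and 98.9 CPM and in wild-type males at 150, 63.7 and 106 CPM. The groups overlapped in both sexes, and the means were 93.3 ± 29.6 against 108 ± 27.9 CPM (SD, n = 6 each). The difference of mean log2(CPM + 1) was -0.22, with p = 0.375 in an exact two-sided permutation test over 400 splits within sex. Leaving out 1 mouse moved it between -0.38 and -0.078. In the edgeR fit (edgeR's quasi-likelihood test with Benjamini-Hochberg adjustment, used throughout unless another tool is named) the log2 fold change (log2FC, floxed minus wild type) was -0.22 ± 0.19 (SE). Within females, Egr1 was called lower in floxed mice in 1 of 6 edgeR fits with 1 mouse left out. This was the fit without floxed female 1 (log2FC -0.56, adjusted p = 0.0126), which called 1136 genes (6.18%). Gene counts do not show the loxP sites. Where both loxP and Nestin-Cre were present, Egr1 was at 4.88 to 10.3 CPM in the 6 mice, against 47.6 to 124 CPM in the 6 wild-type mice with Nestin-Cre.

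The other members of the EGR family and the NAB corepressors, which bind EGR proteins and restrain them, were tested over both sexes. None of the 6 genes on this list, Egr1 included, was called, and its median log2FC was -0.094 beside 0.00041 over all genes tested. Egr3 had a log2FC of -0.050 ± 0.092, Egr4 of -0.14 ± 0.15, Nab1 of 0.065 ± 0.085 and Nab2 of 0.070 ± 0.091. The log2FC farthest from 0 was that of Egr2, at -0.59 ± 0.30 (adjusted p = 0.535).

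**Figure D1:**
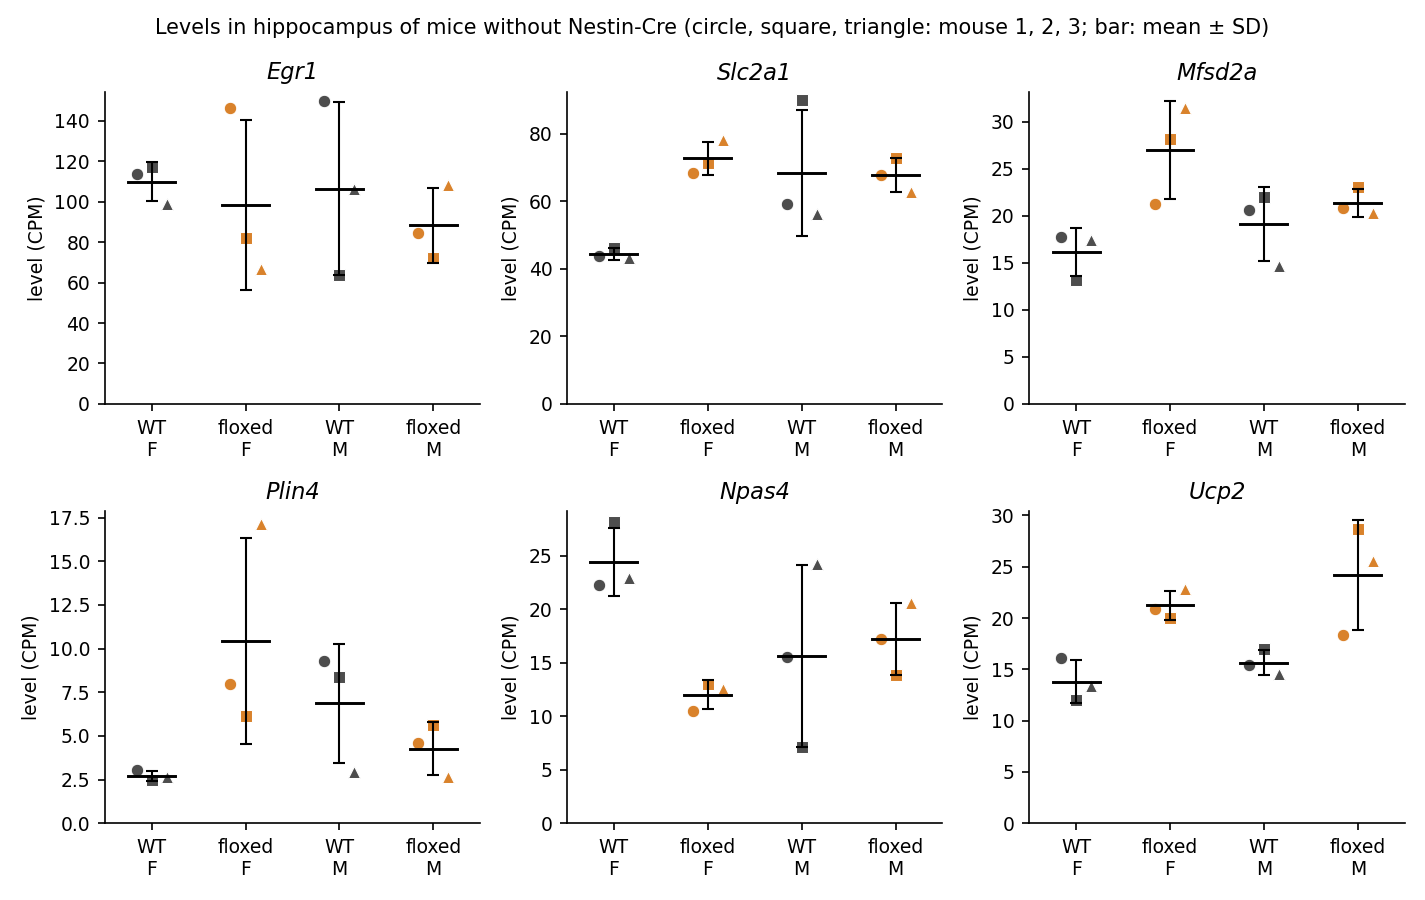
Levels in CPM of 6 genes in each of the 12 mice without Nestin-Cre, by sex and allele (grey, wild type; orange, floxed), with the mean and SD of 3 mice. In females the floxed mice were above all wild-type mice for Slc2a1, Mfsd2a, Plin4 and Ucp2 and below them for Npas4, whereas in males the groups did not overlap for Ucp2 alone, and Egr1 overlapped in both sexes.

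The first question was whether the floxed allele alone was accompanied by a changed hippocampal transcriptome. With sex as a covariate, 18220 genes were tested and 0 were DEGs (fold change of at least 1.2 and adjusted p of at most 0.05), which is 0% of the genes. An unadjusted p under 0.05 was reached by 1716 genes (9.42%), 961 of them higher (5.27%) and 755 lower (4.14%) in floxed mice. DESeq2 called 2 genes (0.00583%), Ucp2 and Avp, and edgeR without a filter on low counts called 163 (0.475%). The median SE of a log2FC was 0.111 over the genes tested, against 0.263 for a fold change of 1.2. The 6 floxed and 6 wild-type mice did not overlap for 55 genes (0.302%), which were higher in floxed mice for 36 and lower for 19.

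Ucp2 (ENSMUSG00000033685, chromosome 7, 100493337 to 100502020), a carrier protein of the inner mitochondrial membrane, had the lowest p. It was at 20.9, 20.04 and 22.8 CPM in floxed females and at 18.3, 28.7 and 25.5 CPM in floxed males. In wild-type mice it was at 16.1, 12.0 and 13.3 CPM in females and at 15.5, 16.98 and 14.5 CPM in males. Every floxed mouse lay above every wild-type mouse. The log2FC was 0.62 ± 0.11 (adjusted p = 0.365), with 0.62 in females and 0.61 in males. By DESeq2 the adjusted p was 0.00206, and without floxed male 1 that of edgeR was 0.0126. In mice with Nestin-Cre the log2FC of Ucp2 was 0.0069 ± 0.13.

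Gpt, which encodes an alanine aminotransferase, also did not overlap between the groups. It was at 13.2 to 17.1 CPM in the floxed mice, with a mean of 14.9, and at 10.1 to 12.1 CPM in the wild-type mice, with a mean of 11.2 (log2FC 0.40 ± 0.087, adjusted p = 0.524). H2-D1, a class I histocompatibility gene whose reads can be shared with its close relatives, was at 26.6 to 31.8 against 20.6 to 24.9 CPM (log2FC 0.31 ± 0.072, adjusted p = 0.524). Trpv4, a cation channel gene, had a log2FC of 1.69 ± 0.39. Its highest values, 6.05 and 6.01 CPM, were in floxed males 2 and 3, which were also the mice with high choroid plexus markers. Avp had a log2FC of 3.44 ± 0.73. Apart from 6.78 CPM in floxed male 2 it was at 0.239 to 1.15 CPM in floxed mice and at 0 to 0.400 CPM in wild-type mice.

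Among the genes that were lower in floxed mice, the lowest p belonged to Pcdhga2, a gamma protocadherin gene. It was at 6.60, 4.95 and 4.54 CPM in floxed females and at 9.66, 11.7 and 7.28 CPM in wild-type females. Among males it was at 7.08, 4.88 and 4.70 against 9.04, 6.001 and 9.14 CPM, so that the groups overlapped there (log2FC over both sexes -0.68 ± 0.16, adjusted p = 0.524). Ahr, the aryl hydrocarbon receptor, was at 8.10 to 11.7 CPM in floxed mice and at 11.4 to 15.6 CPM in wild-type mice (log2FC -0.49 ± 0.12). Ppm1k, a mitochondrial phosphatase gene that controls branched-chain amino acid breakdown, had a log2FC of -0.27 ± 0.068. The antisense genes Emx2os and Gm10538 had log2FCs of -0.33 ± 0.080 and -2.14 ± 0.54, and without strand their reads cannot be told apart from those of genes on the other strand. Gm10538 was near 0 in both groups, at 0.0398 to 0.274 CPM in floxed and 0.133 to 1.14 CPM in wild-type mice, which overlapped. None of these genes was called.

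**Figure D2:**
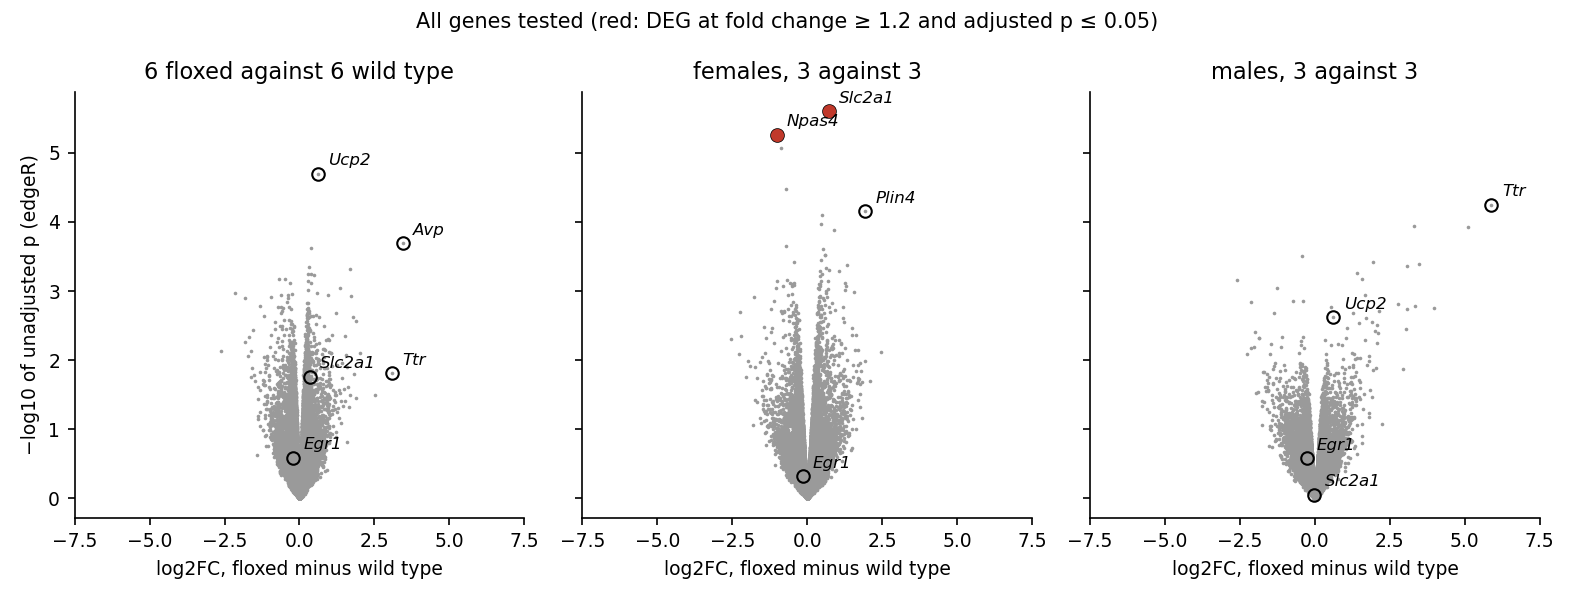
Log2FC (floxed minus wild type) against -log10 of the unadjusted edgeR p for every gene tested in the comparison of 6 with 6 mice, in females and in males. Red points are DEGs, and only Slc2a1 and Npas4 in females are red. Circles mark genes named in the text.

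Within females the same comparison gave 2 DEGs among 17727 genes (0.0113%), and 1583 genes (8.93%) had an unadjusted p under 0.05. Slc2a1 rose and Npas4 fell. They were the only calls in this sex, so their promoters are printed here with that of Mfsd2a, the other barrier transporter named for the floxed females. The 3 sequences are RefSeq promoters on GRCm38.p6, each 300 bases long, in the direction of transcription. They run from 250 bases before to 50 bases after the start used in that source. That start differs from the end of the GENCODE gene spans given below for Slc2a1 and Npas4. The Npas4 window lies wholly inside its GENCODE span. They lie at chr4:119108495-119108794 on the plus strand for Slc2a1, at chr4:122961139-122961438 on the minus strand for Mfsd2a and at chr19:4989922-4990221 on the minus strand for Npas4. Capitals mark ACGTG, the core of the hypoxia response element, in Slc2a1 and Mfsd2a, and TGACG, a part of the cyclic AMP response element, in Npas4, on either strand.
Slc2a1: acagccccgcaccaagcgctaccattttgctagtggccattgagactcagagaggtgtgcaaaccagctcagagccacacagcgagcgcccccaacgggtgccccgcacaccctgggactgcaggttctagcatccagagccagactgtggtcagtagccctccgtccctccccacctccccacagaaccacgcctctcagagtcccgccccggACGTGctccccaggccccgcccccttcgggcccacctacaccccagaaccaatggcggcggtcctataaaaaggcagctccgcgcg
Mfsd2a: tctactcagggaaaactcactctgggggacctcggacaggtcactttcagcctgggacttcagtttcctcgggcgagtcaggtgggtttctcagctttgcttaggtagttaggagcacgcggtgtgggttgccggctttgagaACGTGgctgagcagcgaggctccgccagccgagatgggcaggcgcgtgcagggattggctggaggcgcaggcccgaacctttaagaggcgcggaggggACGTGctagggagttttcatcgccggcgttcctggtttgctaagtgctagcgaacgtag
Npas4: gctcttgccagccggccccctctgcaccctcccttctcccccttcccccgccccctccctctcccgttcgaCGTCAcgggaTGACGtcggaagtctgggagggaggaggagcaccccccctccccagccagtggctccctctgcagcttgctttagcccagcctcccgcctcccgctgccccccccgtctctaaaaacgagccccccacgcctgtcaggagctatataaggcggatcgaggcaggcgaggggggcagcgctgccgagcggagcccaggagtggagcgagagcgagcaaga
Matches were sought on both strands. ACGTG was found once in Slc2a1 and at 2 places in Mfsd2a, and 19.6% of the 32851 promoters in the table hold it. TGACG was found at 2 places in Npas4, and 20.8% of promoters hold it. The full cyclic AMP response element TGACGTCA, which contains TGACG, is in 1.79% of promoters and was not found in the 3 windows. The EGR motif GCGNGGGCG is in 5.55% of promoters and was not found in the 3 windows either. These matches describe letters only.

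Slc2a1 (ENSMUSG00000028645, chromosome 4, 119108711 to 119137983) was at 68.4, 71.4 and 78.1 CPM in floxed females and at 43.7, 46.3 and 43.1 CPM in wild-type females. The groups did not overlap, and the means were 72.6 ± 4.94 and 44.4 ± 1.69 CPM (SD, n = 3 each). The log2FC was 0.71 ± 0.087 (adjusted p = 0.0448). Among males it was at 67.8, 72.9 and 62.7 CPM in floxed mice and at 59.0, 89.9 and 56.3 CPM in wild-type mice. The highest male was wild-type male 2, and the groups overlapped, with a log2FC of -0.024 ± 0.16. The wild-type females were the low group, and the difference of the log2FC between the sexes (male minus female) was -0.73 ± 0.19 (adjusted p = 1.00).

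Npas4 (ENSMUSG00000045903, chromosome 19, 4984355 to 4990316), an immediate early transcription factor found mainly in neurons, was at 10.46, 13.0 and 12.5 CPM in floxed females and at 22.2, 28.1 and 22.9 CPM in wild-type females. The log2FC was -1.02 ± 0.14 (adjusted p = 0.0487). The males had 17.2, 13.8 and 20.6 CPM against 15.6, 7.11 and 24.2 CPM, and the range of the wild-type males contained all floxed males. Their log2FC was 0.14 ± 0.31, and the difference between the sexes was 1.17 ± 0.40 (adjusted p = 1.00). Both female calls lay close to the threshold. They were lost when any mouse other than floxed female 1 was left out, with adjusted p between 0.0823 and 0.295, and with the replicate block. Without floxed female 1 both were kept and the count of female DEGs went from 2 to 1136 (6.18%).

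Without a filter on low counts edgeR called 220 genes in females (0.684%). DESeq2 called 37 (0.315%), of which 21 were higher and 16 lower in floxed mice, and the 2 edgeR calls were among them. Besides Slc2a1 and Npas4 they included Plin4, the endothelial genes Mfsd2a, Eng, Ly6c1 and Notch4, and the myelin genes Mobp and Mbp among the higher genes. Among the lower genes were the activity-induced Fos, Arc, Egr2, Btg2, Junb and Nr4a1. These genes were picked after their values were seen. In males 0 of 17255 genes were DEGs by edgeR (0%), with 473 genes (2.74%) at an unadjusted p under 0.05. DESeq2 called 3 genes in males (0.00945%), Ttr, Cldn2 and Col8a2, and each was highest in floxed males 2 and 3.

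The test of whether the effect of the allele differed between the sexes called 0 of 18220 genes (0%), with 600 genes (3.29%) at an unadjusted p under 0.05, 1.48% of all genes higher and 1.82% lower in males relative to females. DESeq2 called 3 (0.00874%), of which Ttr and 1500015O10Rik were higher and Gpr161 was lower in males relative to females. Plin4 (ENSMUSG00000002831, chromosome 17, 56100591 to 56109803) was at 7.996, 6.14 and 17.1 CPM in floxed females and at 3.02, 2.46 and 2.66 CPM in wild-type females. In males it was at 4.58, 5.61 and 2.62 CPM in floxed mice and at 9.29, 8.36 and 2.94 CPM in wild-type mice. The log2FC was 1.93 ± 0.33 in females (adjusted p = 0.233) and -0.70 ± 0.38 in males. The difference between the sexes was -2.62 ± 0.58 (adjusted p = 0.865).

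Most genes on the list for the blood-brain barrier and endothelium had a log2FC above 0, in 31 of 35 genes in females and 25 of 35 in males, beside 50.7% and 49% of all genes. Of 35 genes tested over both sexes, 0 were DEGs and the median log2FC was 0.22. At an unadjusted p under 0.05, 12 were higher and 0 lower, beside 5.27% and 4.14% of all genes. In females 14 were higher at that p, beside 4.8% of all genes, and 0 were lower, beside 4.13%, and the median was 0.34. In males 1 was higher, beside 1.41% of all genes, and 0 were lower, beside 1.33%, and the median was 0.096. For the difference between the sexes the median was -0.26, with 0 genes called. The summed level of the list was 1112, 1127 and 1040 CPM in floxed females and 845, 1011 and 895 CPM in wild-type females, without overlap. For males the sum was 1107, 1170 and 1148 CPM against 920, 1229 and 1037 CPM, and wild-type male 2 was the highest of the 12 mice. In whole tissue, more cells of a type and more RNA per cell cannot be told apart.

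Mfsd2a was at 21.3, 28.2 and 31.5 CPM in floxed females and at 17.7, 13.2 and 17.4 CPM in wild-type females (log2FC 0.74 ± 0.16, adjusted p = 0.412). Male values were 20.8, 23.1 and 20.3 against 20.6, 22.005 and 14.6 CPM (log2FC 0.15 ± 0.15). Eng, which encodes the TGF-beta coreceptor endoglin, was at 17.5, 19.9 and 16.2 CPM in floxed females against 9.499, 13.6 and 10.3 CPM in wild-type females (log2FC 0.69 ± 0.15). Ly6c1, a surface protein of brain endothelium, was at 26.2, 32.7 and 27.5 against 17.04, 19.4 and 20.5 CPM (log2FC 0.60 ± 0.12). The groups of females did not overlap for these 3 genes. For 10 of the 35 genes of the list the females did not overlap with floxed mice higher, beside 6.95% of all genes, and for 1 gene in males, beside 4.31%.

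Members of the endothelial list differed among themselves in females. Robo4, a guidance receptor of vessels, had a log2FC of 0.87 ± 0.26, Sox17, an endothelial transcription factor, of 0.84 ± 0.24, the receptor gene Tie1 of 0.73 ± 0.23 and the adhesion molecule gene Esam of 0.65 ± 0.19, and none of them was called. Cldn5, the main claudin of the barrier, was at 18.7, 22.6 and 14.9 CPM in floxed females against 10.2, 18.02 and 9.82 CPM in wild-type females (log2FC 0.57 ± 0.22). Pecam1 had a female log2FC of 0.38 ± 0.19, Vwf of 0.17 ± 0.27 and the efflux pump gene Abcb1a of 0.037 ± 0.26. Bsg, whose product basigin escorts lactate transporters to the membrane, had a log2FC of 0.25 ± 0.092 in females and 0.20 ± 0.11 in males. Pericytes and smooth muscle, the other cells of the vessel wall, had a median log2FC of 0.042 over both sexes. Of 11 genes 1 had an unadjusted p under 0.05, Acta2, which was higher (0.54 ± 0.22), beside 5.27% of all genes.

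**Figure D3:**
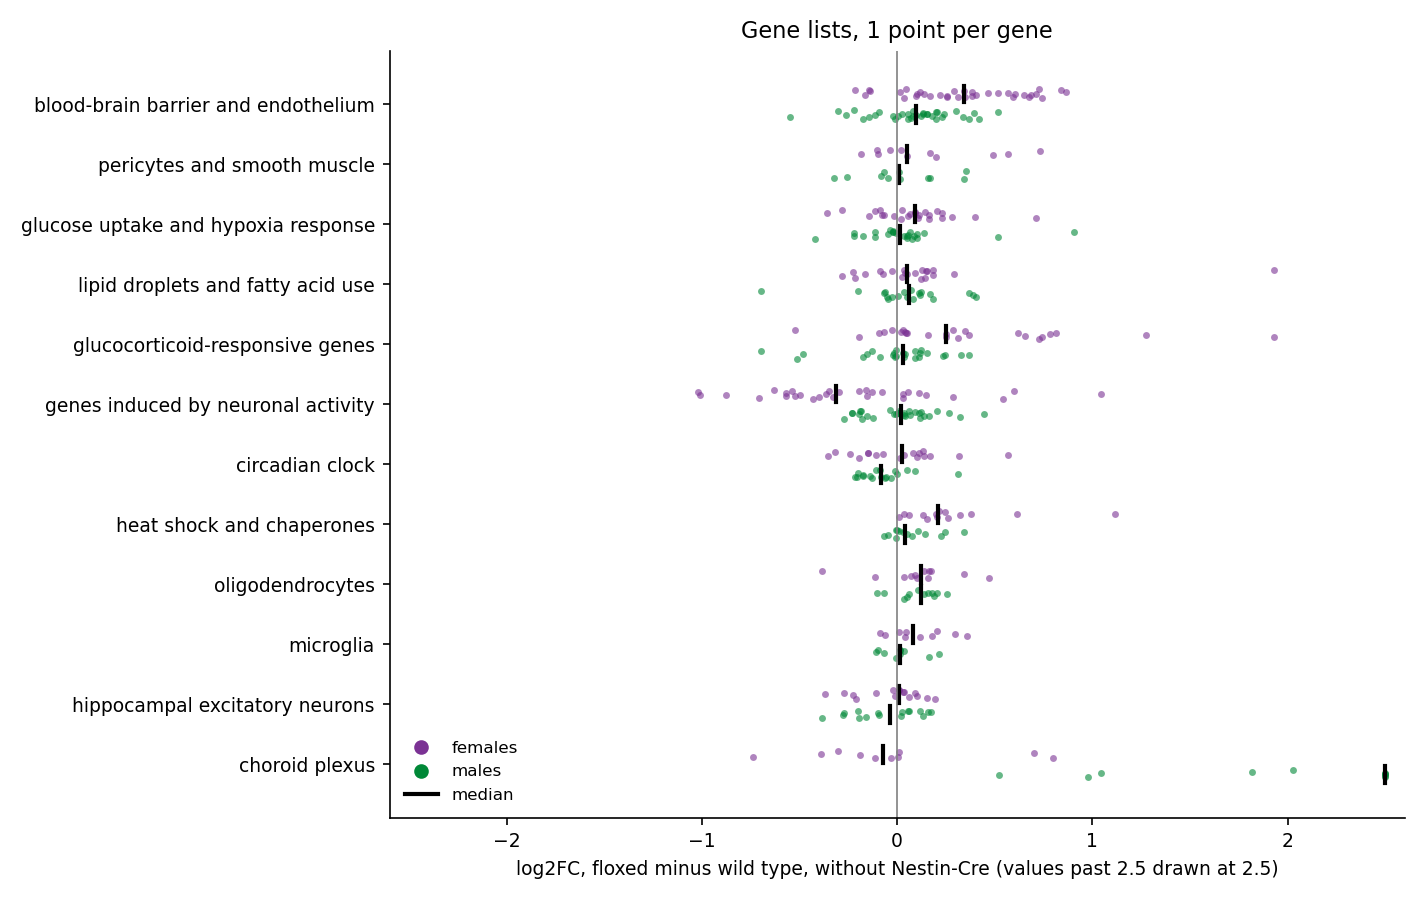
Log2FC (floxed minus wild type) of each gene of 12 lists in females (purple) and in males (green), with the median of each list as a black bar. In females the endothelial and glucocorticoid lists lie mostly to the right and the activity list mostly to the left, in males these lists centre near 0, and the choroid plexus list lies far to the right in males, with its median past the end of the axis.

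The genes of glucose uptake and the hypoxia response, which share Slc2a1 with the endothelial list, had a median log2FC of 0.035. Of 25 genes 4 were higher and 0 lower at an unadjusted p under 0.05, beside 5.27% and 4.14% of all genes. Ndrg1, a gene induced by hypoxia that is also abundant in oligodendrocytes, was at 62.9, 60.2 and 55.9 CPM in floxed females and at 47.7, 41.8 and 46.6 CPM in wild-type females (log2FC 0.40 ± 0.092). Its log2FC in males was 0.053 ± 0.097. Aldoa (ENSMUSG00000030695), a glycolytic enzyme gene, had a log2FC of 0.14 ± 0.063 over both sexes. Another gene entry with the symbol Aldoa, which makes 25 genes from 24 symbols, had -0.36 in females and 0.91 in males. The lipid droplet and fatty acid list stayed near 0, with a median of 0.080 and 0 of 21 genes past that p over both sexes. Plin4 was its only member above a log2FC of 1 in females, and Plin3 had 0.18 ± 0.098 over both sexes.

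Plin4, Mfsd2a and Xdh are also on the list of genes that respond to glucocorticoids, the hormones of the adrenal stress axis. The study had already reported these 3 genes as higher in the same floxed females, and they are counted below. On that list 12 of 25 genes were higher and 2 lower at an unadjusted p under 0.05 in females, beside 4.8% and 4.13% of all genes, with a median of 0.25. In males 1 was higher and 1 lower, beside 1.41% and 1.33%, with a median of 0.031, and the median of the difference between the sexes was -0.21. Xdh, which encodes the purine-degrading enzyme xanthine dehydrogenase, was at 8.16, 4.77 and 7.45 CPM in floxed females and at 2.75, 3.83 and 1.84 CPM in wild-type females (log2FC 1.27 ± 0.29, adjusted p = 0.412). Tsc22d3, the glucocorticoid-induced leucine zipper, was at 81.2, 95.0 and 108 against 72.3, 47.4 and 65.4 CPM (log2FC 0.62 ± 0.14). Fkbp5, a chaperone of the glucocorticoid receptor, was at 65.9, 73.0 and 83.5 against 62.6, 55.3 and 60.9 CPM (log2FC 0.31 ± 0.10). The females did not overlap for these 3 genes, and in males the log2FCs were -0.0098, -0.023 and -0.086. On the list 7 of 25 genes did not overlap in females with floxed mice higher, beside 6.95% of all genes. With floxed mice lower it was 2 genes, beside 6.26%. The female log2FC was below 0 for 5 of the 25 genes, among them Dusp1 at -0.53 and Per1 at -0.19. Floxed female 3 had the highest summed level of the list, 1626 CPM, beside 1371 to 1418 CPM in the other 5 floxed mice.

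Most genes induced by neuronal activity had a log2FC below 0 in females, 21 of 30. Of the 30 genes, 16 were lower and 4 higher at an unadjusted p under 0.05, beside 4.13% and 4.8% of all genes, and the median log2FC was -0.31. Npas4 was the DEG among the lower ones. In males 0 were lower, beside 1.33% of all genes, and 1 was higher, beside 1.41%, and the median was 0.022. For the difference between the sexes the median was 0.35, with 0 genes called. Over both sexes 2 were lower, beside 4.14%, and 0 higher, beside 5.27%, with a median of -0.15. The summed level was 1450, 1633 and 1573 CPM in floxed females and 1849, 1777 and 1653 CPM in wild-type females, without overlap. For males the sum was 1702, 1216 and 1868 CPM against 1781, 1234 and 1759 CPM, with male 2 lowest in both groups.

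Fos was at 13.96, 17.6 and 14.8 CPM in floxed females and at 30.7, 27.3 and 27.3 CPM in wild-type females (log2FC -0.88 ± 0.12, adjusted p = 0.0505). Floxed males had 24.2, 11.9 and 34.6 CPM and wild-type males 17.5, 7.38 and 36.6 CPM, a wider spread than that of all 6 females. Arc, whose product remodels synapses, was at 158, 182 and 128 against 240, 258 and 198 CPM in females (log2FC -0.57 ± 0.13). Egr2 was at 3.30, 6.31 and 4.76 against 9.62, 10.9 and 8.35 CPM in females (log2FC -1.01 ± 0.23, adjusted p = 0.412). For Fos, Arc and Egr2 the floxed females were all below the wild-type females. This held for 15 of the 30 genes of the list, beside 6.26% of all genes. For 3 of the 30 the floxed females were all above, beside 6.95%.

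Inhba, which encodes a subunit of activin, had the opposite direction in females, with 13.0, 24.2 and 27.4 CPM in floxed against 10.95, 11.3 and 8.92 CPM in wild-type mice (log2FC 1.05 ± 0.22). Nptx2, a synapse-organising pentraxin, had a female log2FC of 0.60 ± 0.16. Both are among the genes of the list that are induced more slowly than Fos. Bdnf, the neurotrophin, had a log2FC of -0.16 ± 0.10 in females and -0.018 ± 0.11 in males.

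Stress and clock genes were described in the same way. All 14 heat shock and chaperone genes had a log2FC above 0 over both sexes, beside 50.1% of all genes. By sex it was 14 genes in females, with a median of 0.21, and 9 in males, with a median of 0.039. Of all genes 50.7% were above 0 in females and 49% in males. Over both sexes 3 were at an unadjusted p under 0.05 with floxed mice higher, beside 5.27% of all genes, and none was called. Cryab, a small heat shock protein that is abundant in oligodendrocytes, was at 50.6 to 74.3 CPM in floxed and 44.5 to 60.1 CPM in wild-type mice (log2FC 0.31 ± 0.086). Hspa1a, which has a near-identical copy in Hspa1b, had 0.33 ± 0.13. Among 18 circadian clock genes, 1 was higher and 3 lower, beside 5.27% and 4.14% of all genes. Nr1d1 was at -0.18 ± 0.065, Clock at -0.18 ± 0.064 and Nfil3 at 0.44 ± 0.17. Of 6 genes known to differ between the substrains C57BL/6N and C57BL/6J, 0 were past that p over both sexes, and Nnt, deleted in part in C57BL/6J, was at 0.0547 to 1.39 CPM in floxed and 0.368 to 1.68 CPM in wild-type mice.

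Glial and neuronal lists showed small medians. For oligodendrocytes the median was 0.090. Among 12 genes, Mobp (log2FC 0.33 ± 0.11) and Mbp (0.27 ± 0.098), both components of myelin, were past an unadjusted p of 0.05, beside 5.27% of all genes. In females Mobp was at 829, 755 and 758 against 574, 599 and 519 CPM, without overlap. For microglia the median was 0.027 with 3 of 10 genes higher, beside 5.27% of all genes, and the complement gene C1qa was at 33.7 to 39.9 CPM in floxed and 27.7 to 37.6 CPM in wild-type mice (log2FC 0.26 ± 0.074). Astrocytes had a median of 0.0045 and interneurons of 0.12. Among 16 genes of hippocampal excitatory neurons 4 were lower, beside 4.14% of all genes, and 0 higher, with a median of -0.019. Wfs1, a marker of CA1 pyramidal cells, was at 113 to 141 CPM in floxed and 134 to 188 CPM in wild-type mice (log2FC -0.27 ± 0.078), and Neurod6 had -0.23 ± 0.082. The nuclear long noncoding RNAs had a median of -0.035, with Malat1 at -0.28 ± 0.13.

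Markers of the tissues next to the hippocampus were also listed. Over both sexes 8 of 12 choroid plexus genes were higher at an unadjusted p under 0.05, beside 5.27% of all genes, with a median log2FC of 1.47. Without floxed males 2 and 3 the count was 0 and the median 0.091. In females the median was -0.071. The summed level was 853 and 1079 CPM in floxed males 2 and 3 and 40.7 to 60.8 CPM in the other 10 mice. Without floxed male 1, 17 male DEGs were called (0.0954%), of which 9 are on the choroid plexus list, among them Ttr, the water channel gene Aqp1 and the coagulation factor gene F5. On the hypothalamus list 2 of 6 genes were higher, Avp and Oxt, beside the same 5.27% of all genes. Avp was higher in the floxed mice without overlap within each sex, and its log2FC was at least 2.48 with any 1 mouse left out. Oxt was at 0 to 0.853 CPM in the floxed mice other than male 2 and at 0.125 to 0.489 CPM in wild-type mice. Its log2FC was between 0.61 and 2.31 with 1 mouse left out. On the striatum list 2 of 11 genes were higher, Ppp1r1b and Adora2a, beside 5.27% of all genes, and without floxed males 2 and 3 none was. The meninges list had a median of -0.19 with 1 of 11 genes lower, Aldh1a2, and the blood list 0.11 with 1 of 5 lower, Alas2. Of all genes 4.14% were lower. The thalamus list had a median of 0.14. The part of these tissues in the other results was not tested. The endothelial list without floxed males 2 and 3 had a median of 0.29 with 9 of 35 genes higher at that p, beside 350 of 18220 genes.

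**Figure D4:**
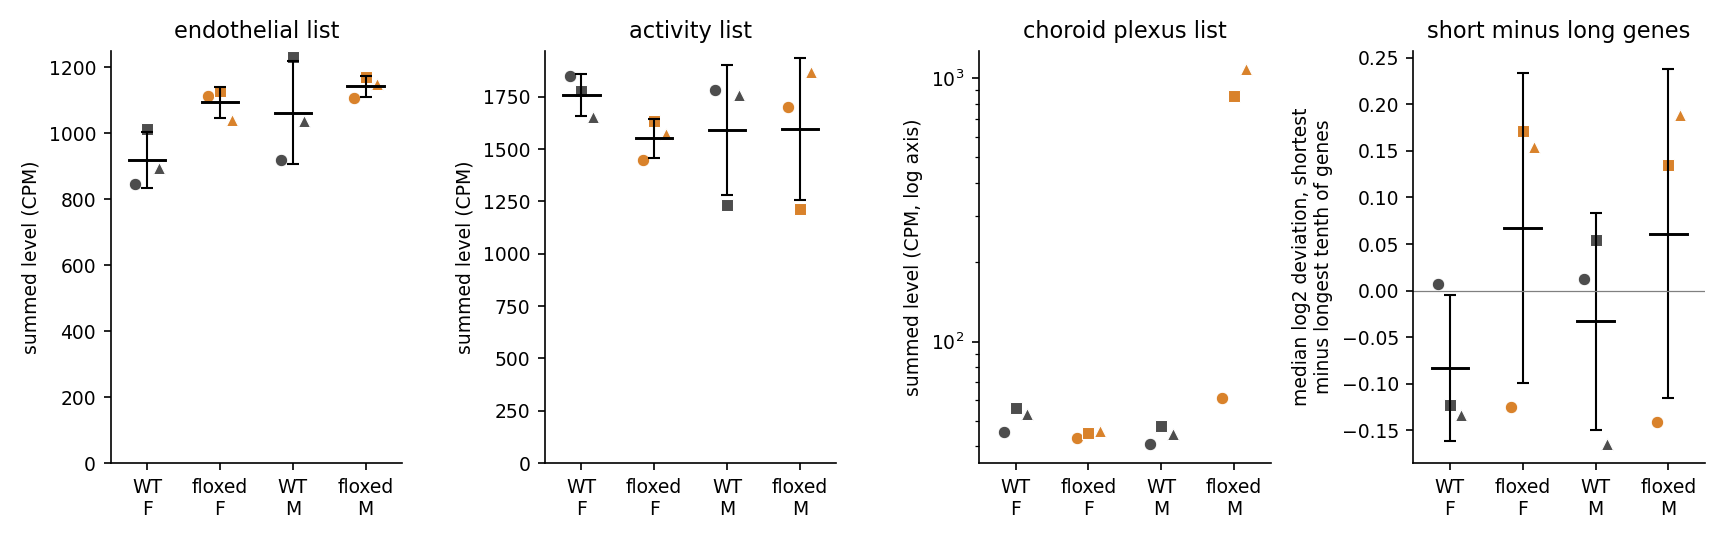
Summed level in CPM of the endothelial, activity and choroid plexus lists (the last on a log axis), and the level of short against long genes, in each of the 12 mice (grey, wild type; orange, floxed; circle, square and triangle for mouse 1, 2 and 3; bars, mean and SD of 3 mice except on the log axis). Floxed females are above wild-type females for the endothelial list and below them for the activity list, floxed males 2 and 3 lie far above the rest for choroid plexus genes, and 4 floxed mice have the highest values for short against long genes.

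The log2FC varied with the length of the gene. The genes were ordered by exonic length and cut into 10 bins. In the shortest bin, with a median of 791 bases, the median log2FC was 0.051, and in the longest bin, with a median of 11850 bases, it was -0.082. In the longest bin 17 genes were higher and 200 lower at an unadjusted p under 0.05, beside 5.27% and 4.14% of all genes. For each mouse the median deviation of the longest bin was subtracted from that of the shortest bin, on the log2 scale. This was 0.171 and 0.155 in floxed females 2 and 3 and 0.135 and 0.188 in floxed males 2 and 3, but -0.125 in floxed female 1 and -0.141 in floxed male 1. The wild-type mice ranged from -0.165 to 0.0538. The first principal component, with 21.7% of the variance, placed the same 4 floxed mice at 12.6 to 23.9 and the other 8 mice at -15.8 to 2.83. In mice with Nestin-Cre the gradient ran the other way, from -0.147 in the shortest to 0.117 in the longest bin. With this value of each mouse as a covariate 0 genes were called, 346 of 18220 genes were higher and 387 lower at an unadjusted p under 0.05, and the median of the endothelial list was 0.24 with 9 of 35 genes higher and that of the activity list -0.083 with 0 lower. The median of the glucocorticoid list went from 0.17 with 4 of 25 genes higher to 0.052 with 2 higher, and that of the heat shock list from 0.17 with 3 of 14 higher to 0.071 with 2 higher.

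The genes around Egr1 were examined because a targeted allele can be accompanied by differences in the region that was inherited with it. Of 161 genes tested whose start lies within 5 Mb of the start of Egr1, 0 were DEGs, 2 were higher and 18 lower at an unadjusted p under 0.05, beside 5.27% and 4.14% of all genes, with a median log2FC of -0.055. The lower genes were mostly protocadherins, adhesion proteins that give neurons a cell surface identity and lie in clusters about 2 to 3 Mb from Egr1. Of 54 protocadherin genes 13 were lower, beside the same 4.14%, and 0 higher, with a median of -0.22. Among the other 107 genes 5 were lower and 2 higher, with a median of 0.020. Pcdhga1 was at 1.15 to 4.17 CPM in floxed and 3.55 to 6.62 CPM in wild-type mice (log2FC -0.83 ± 0.24), and Pcdhb2 was at 1.396 to 2.83 against 1.90 to 4.45 CPM (log2FC -0.82 ± 0.24). The protocadherin genes share sequence with each other, and the gamma genes also share their last exons, so that single members are uncertain. Their summed level was 690 to 725 CPM in floxed females 2 and 3 and floxed males 2 and 3, and 841 to 1018 CPM in the other 8 mice. With the length value as a covariate their median was -0.062 with 5 lower.

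**Figure D5:**
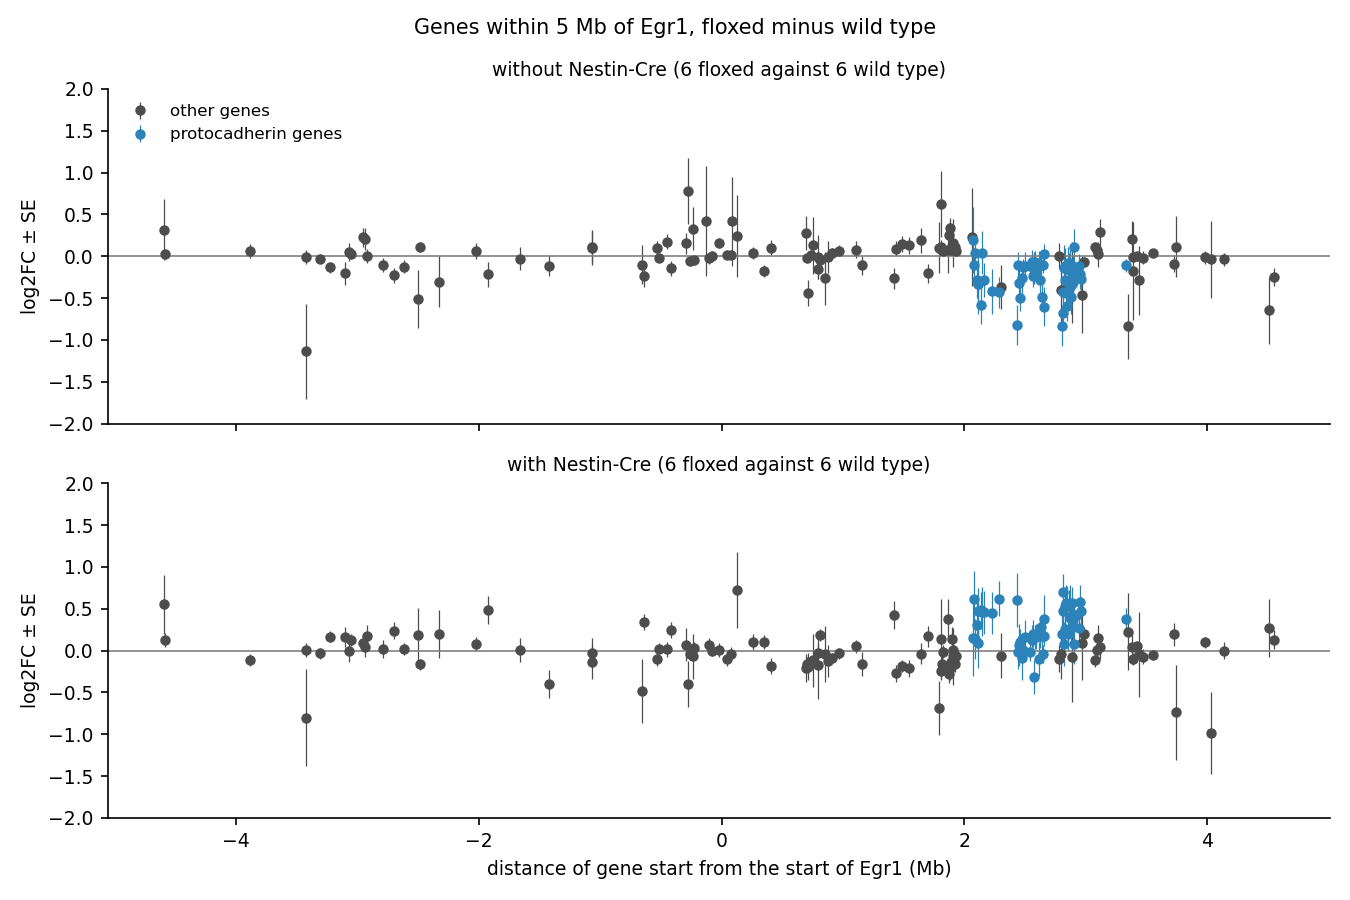
Log2FC ± SE (floxed minus wild type) of genes within 5 Mb of Egr1 against the distance of their start from that of Egr1, in mice without Nestin-Cre (top) and with Nestin-Cre (bottom). The protocadherin genes (blue) lie mostly below 0 in the upper panel and mostly above 0 in the lower panel.

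The mice with Nestin-Cre are 12 other animals, in which the same allele comparison includes the loss of Egr1. There 1 of 17909 genes was a DEG (0.00558%), Egr1, with a log2FC of -3.45 ± 0.21. Slc2a1 was at 116, 105 and 82.4 CPM in floxed females with Nestin-Cre and at 55.1, 38.4 and 55.8 CPM in wild-type females with Nestin-Cre. The males had 57.01, 66.9 and 63.4 against 51.9, 53.0 and 48.2 CPM. The groups did not overlap in either sex, and over both sexes the log2FC was 0.65 ± 0.14 (adjusted p = 0.357). DESeq2 called Slc2a1 in these mice (adjusted p = 0.0229), among 30 genes (0.135%). With 1 mouse left out, edgeR called it in 1 of 12 fits (adjusted p = 0.0180). That fit was the one without wild-type male 2 with Nestin-Cre, and it called 795 genes. The endothelial list had a median of 0.22 there, with 9 of 35 genes higher and 0 lower at an unadjusted p under 0.05, beside 6.24% and 5.81% of all genes. The activity list had 11 of 30 genes higher, with a median of 0.23, and the 54 protocadherin genes had 13 higher and a median of 0.27, with 48 of 54 above 0 beside 46.7% of all genes. The oligodendrocyte list had a median of -0.24, with 0 of 12 genes above 0 and 5 lower at that p, beside 5.81% of all genes. Plin4 had a log2FC of 0.36 ± 0.27, Mfsd2a of 0.24 ± 0.10 and Npas4 of -0.62 ± 0.49. The difference of the allele effect between mice with and without Nestin-Cre was called for 1 of 18766 genes (0.00533%), Egr1, and at an unadjusted p under 0.05 it was positive for 9.99% and negative for 8.84% of genes.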

How the data were processed

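Poly(A) RNA of hippocampus was sequenced as non-stranded, paired-end libraries. The authors deposited whole-number counts per gene for 36605 genes, without normalization. Their processing notes list Trim Galore 3.8.2, FastQC, STAR 2.7.9 and GRCm38, and the counting annotation is not given in the sources used here. Symbols and positions were taken from GENCODE M21 on GRCm38, and 36493 genes had a symbol. Counts were filtered with filterByExpr (minimum count 10), normalized by TMM and tested with edgeR 4.0.16 (R 4.3.3) by the quasi-likelihood test, with sex as a covariate in the comparison of 6 with 6 mice. P-values were adjusted by the Benjamini-Hochberg method over all genes tested. DEGs had to pass a fold change minimum of 1.2 and an adjusted p threshold of 0.05, and no fold minimum was set for differences of effects. SEs were derived from the F statistic and the log2FC. Levels are CPM with TMM factors over all 24 mice, so they compare mice for 1 gene, not genes with each other. The Egr1 level was tested on log2(CPM + 1). DESeq2 1.42.0 and limma 3.58.1 were alternatives. The scripts were checked on simulated counts. No 2 libraries of the same genotype and sex agreed within counting noise, and pairs across groups were not compared.

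The members, gene lists and tests were chosen with earlier results of these data known. Slc2a1, Mfsd2a, Plin4 and Xdh, which the study had reported as higher in these floxed females, are on the endothelial, glucose, lipid or glucocorticoid lists. Named genes were Egr1, Slc2a1, Plin4, Mfsd2a, Xdh and Npas4, the genes called, the 5 of lowest p in each direction of the comparison of 6 with 6 mice, and the 3 of lowest p on each list. Other genes of the lists are examples chosen after their values were seen. Promoters were matched to RefSeq by symbol for 3 of 3 genes.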

Additional observations from a re-analysis of the deposited data

Results flagged for a closer look

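Of 94 groups of 6 mice examined for a mouse far from the others, 10 held one, and chance gives about 1 in 20 groups. In the floxed mice, Plin4 was at 17.1 CPM in female 3, beside 2.62 to 7.996 CPM in the others, and the summed level of the glucocorticoid list was 1626 CPM in the same mouse, beside 1371 to 1418 CPM. Floxed male 2 had 6.78 CPM of Avp, beside 0.239 to 1.15 CPM, and a summed level of 16.6 CPM for the hypothalamus list, beside 2.75 to 4.49 CPM. In the wild-type mice, male 2 had 89.9 CPM of Slc2a1, beside 43.1 to 59.0 CPM, and a summed level of 1234 CPM for the activity list, beside 1653 to 1849 CPM. H2-D1 was at 20.6 CPM in wild-type male 1, beside 23.6 to 24.9 CPM. Wild-type female 2 had summed levels of 1388 CPM for the list of C57BL/6N and C57BL/6J differences, beside 1200 to 1262 CPM, and of 200.5 CPM for the striatum list, beside 172.8 to 182.6 CPM. Long intergenic noncoding RNA took 1.29% of counts in wild-type female 1, beside 1.11% to 1.17% in the others.

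The allele effect on Egr1 differed between mice with and without Nestin-Cre, by a log2FC of -3.21 in edgeR's quasi-likelihood test of the difference (adjusted p = 1.26e-06).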

How the results depend on the processing

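The counts of called genes depended on the tool and on the filter. DESeq2 called 2 genes over both sexes (0.00583%), 37 in females (0.315%) and 3 in males (0.00945%). It called 3 for the difference between the sexes (0.00874%), 30 in mice with Nestin-Cre (0.135%) and 335 for the difference by Nestin-Cre (10.3%). These shares are of the genes that had an adjusted p, which were 3250 for the last comparison and 11741 to 34330 for the others. Without a filter on low counts edgeR called 163 (0.475%), 220 (0.684%), 56 (0.176%), 49 (0.143%), 529 (1.55%) and 1173 (3.2%) in the same order. Leaving out 1 mouse gave 0 to 1 genes over both sexes (1 without floxed male 1), 0 to 1136 in females (1136 without floxed female 1), 0 to 17 in males (17 without floxed male 1) and 0 to 4 for the difference between the sexes (4 without floxed male 1, 1 without wild-type female 2). In mice with Nestin-Cre it gave 1 to 795 (795 without wild-type male 2, 2 without floxed male 2). For the difference by Nestin-Cre it gave 1 to 1482 (1482 without wild-type male 2 with Nestin-Cre, 381 without floxed male 1 without it). The causes were not tested. In the permutation test over both sexes the Egr1 level kept its direction and its side of the threshold in 14 of 14 alternatives. Over both sexes 0 genes were called by limma-voom, with DESeq2 size factors, with no fold minimum, with no sex term and in a fit of all 24 mice. The same held in 2 alternatives chosen after seeing the data. These were without floxed males 2 and 3 and with each mouse's level of short against long genes as a covariate.

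Mice with the same number were not paired, since correlations of their deviations were between -0.186 and 0.0494. With the replicate number as a block, 0 genes were called in females (adjusted p = 0.084 for Slc2a1 and 0.0662 for Npas4 by edgeR) and 1 in males.

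Some log2FCs that were not called changed sign. In males, Slc2a1 was at 0.0081 with the block and -0.14 to 0.23 with 1 mouse left out. Xdh in males was at 0.0056 without a filter, 0.015 with the block, 0.091 without floxed males 2 and 3, and -0.17 to 0.21 with 1 mouse left out. The difference of Egr1 between the sexes was 0.024 with the block and -0.38 to 0.29 with 1 mouse left out. The ranges with 1 mouse left out were -0.0013 to 0.27 for Mfsd2a, -0.21 to 0.60 for Npas4 and -0.54 to 0.055 for Egr1 in males, and -0.56 to 0.056 for Egr1 in females. Over both sexes they were -0.53 to 0.067 for Ogn, -0.44 to 0.19 for Ptgds and -0.53 to 0.076 for Pomc, and in mice with Nestin-Cre -0.97 to 0.12 for Npas4. The -0.56 of Egr1 in females, without floxed female 1, was called (adjusted p = 0.0126 by edgeR).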
